A study of Mus musculus with 9 samples.

Results

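Cldn5, Trp53i11, Angptl4 and Aplnr are 4 of the 16951 genes in the expression table of a mouse heart study. They were chosen by their measured levels, which were low in hearts given angiotensin II (AngII) together with prostaglandin E1 (PGE1), set against both saline hearts and hearts given AngII alone. All 4 were among the 11902 genes that reached 1 FPKM (a level scaled for gene length and for the reads of each library) in at least 3 libraries. The contrasts between AngII+PGE1 and the other groups therefore chose these genes, and their own values are given as a description, with no test. Judged by overlap of libraries, the working description "low only with added PGE1" held for Trp53i11 and Aplnr, whose AngII libraries overlapped the saline ones. The AngII libraries of Cldn5 lay below the saline ones, by a smaller step than its AngII+PGE1 libraries. The means did not separate Cldn5 from Aplnr in this. The AngII mean was 75.5% of the saline mean for both, and 80.8% for Trp53i11. The description did not hold for Angptl4, which was already low with AngII alone and whose AngII and AngII+PGE1 libraries overlapped.

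Hearts of C57BL/6 mice were profiled by RNA sequencing in 3 groups, saline, AngII and AngII+PGE1, with 3 libraries each and 9 in all. AngII is the pressor peptide of the renin-angiotensin system and is widely used to bring on hypertrophy of the heart, and PGE1 is a vasodilator prostaglandin. PGE1 was present only together with AngII, so no group shows PGE1 by itself. Doses, duration, age and sex of the mice are not given in the sources used here, nor is it said whether each library came from a separate animal, so the p-values below cover no more than library-to-library spread, which may be technical. The sample titles name the tissue as heart, so each value is an average over cardiomyocytes, vessels and other cells.

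Cldn5 encodes claudin 5, the main claudin of endothelial tight junctions, which seals the gaps between endothelial cells. Aplnr encodes the G-protein-coupled receptor for apelin and for the related peptide Apela, and in the heart it is found largely on endothelium. Its ligand apelin raises contractility and relaxes vessels, and the pathway is known for opposing AngII signalling. Angptl4 encodes a secreted protein that inhibits lipoprotein lipase, the enzyme that frees fatty acids from circulating triglyceride, and it is a target of the fatty acid-sensing PPAR receptors. Trp53i11 encodes tumor protein p53 inducible protein 11, a membrane protein first described as a p53-induced gene.

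Promoter sequences from RefSeq were at hand for Cldn5 and Trp53i11, and they are shown because both genes were low in the same libraries. Each runs from 250 bases before to 50 bases after the gene's start, 5′ to 3′, on assembly GRCm38.p6. The Cldn5 promoter is chr16:18776597-18776896 and that of Trp53i11 is chr2:93187298-93187597, both on the plus strand. Capitals mark matches to a GC box (GGGCGG) and to the core of ETS factor sites (GGAAG), searched on both strands.
Cldn5: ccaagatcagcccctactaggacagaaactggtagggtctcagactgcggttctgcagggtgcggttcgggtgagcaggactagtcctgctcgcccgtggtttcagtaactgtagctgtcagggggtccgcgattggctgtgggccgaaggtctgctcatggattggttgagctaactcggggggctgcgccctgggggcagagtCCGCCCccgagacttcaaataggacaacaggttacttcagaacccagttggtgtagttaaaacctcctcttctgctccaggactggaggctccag
Trp53i11: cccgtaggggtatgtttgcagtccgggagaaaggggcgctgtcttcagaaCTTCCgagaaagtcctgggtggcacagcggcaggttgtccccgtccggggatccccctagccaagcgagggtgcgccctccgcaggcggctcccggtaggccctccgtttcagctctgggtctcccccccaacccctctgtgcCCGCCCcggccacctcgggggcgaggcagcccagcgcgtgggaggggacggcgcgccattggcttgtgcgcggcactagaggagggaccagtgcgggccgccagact
Both promoters held 1 GC box, starting at base 206 in Cldn5 and at base 194 in Trp53i11, counted from 1 at the 5′ end. The GC box was present in 35.7% of the 32851 promoters of this length in the table. Trp53i11 also held 1 ETS core, at base 51, a motif found in 71.4% of promoters, and Cldn5 held none. Cldn5 held 1 E-box (CANNTG) at base 250, and this motif was found in 72.3% of promoters. Neither window held the forkhead motif TGTTTA, the SOX motif ACAAT, the nuclear receptor half-site AGGTCA or the CRE half-site TGACG, which were present in 13.4%, 31.0%, 16.3% and 20.8% of promoters. The matched bases did not overlap in either promoter. The GC content was 58.3% for Cldn5 and 70.3% for Trp53i11, against a median of 52.7% over all promoters. A match here describes letters in a window, not a bound site.

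Of the 9 libraries, 2 stood apart from their groups. On the first principal component of all tested genes, which held 62.3% of the variance, saline library 2 and AngII+PGE1 library 1 lay on the side of the AngII libraries. Saline library 2 was at 16.3 and AngII+PGE1 library 1 at 12.4, while the AngII libraries ran from 33.4 to 41.1 and the remaining saline and AngII+PGE1 libraries from -38.6 to -26.4. The summed FPKM differed between libraries by at most 1.26-fold. The number of reads per library is unknown from these values, so no counting interval can be given.

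Cldn5 was at 23.75, 25.79 and 25.86 FPKM in saline libraries 1 to 3, at 20.94, 20.96 and 14.99 FPKM in the AngII libraries, and at 9.89, 8.89 and 7.16 FPKM with AngII+PGE1. The groups formed 3 steps that did not overlap, with the AngII+PGE1 libraries lowest. The means were 25.1 ± 1.2, 19.0 ± 3.44 and 8.65 ± 1.38 FPKM (SD, n = 3 each), so the AngII+PGE1 mean was 34.4% of the saline mean and 45.6% of the AngII mean. On the log2(FPKM + 1) scale used for every difference below, which understates the change of weakly expressed genes, Cldn5 in AngII+PGE1 was 1.45 below saline (log2 difference -1.45) and 1.04 below AngII (-1.04), while AngII against saline was -0.40. That last difference was -0.25 without AngII library 3.

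Trp53i11 was at 28.21, 34.64 and 26.6 FPKM with saline, at 24.5, 28.45 and 19.35 FPKM with AngII, and at 8.72, 8.54 and 10.37 FPKM with AngII+PGE1. The AngII and saline libraries overlapped, and all AngII+PGE1 libraries lay below both. The means were 29.8 ± 4.25, 24.1 ± 4.56 and 9.21 ± 1.01 FPKM (SD, n = 3), and the AngII+PGE1 mean was 30.9% of the saline mean and 38.2% of the AngII mean. The log2 differences were -1.59 from saline and -1.29 from AngII, and AngII against saline was -0.30. Without AngII library 3 the latter was -0.16, and without saline library 2 it was -0.19.

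Aplnr was at 29.64, 21.37 and 25.17 FPKM with saline, at 20.62, 25.26 and 11.62 FPKM with AngII, and at 9.71, 6.84 and 7.42 FPKM with AngII+PGE1. The AngII libraries were spread widest, with the first pair inside or just below the saline range and library 3 near the AngII+PGE1 level but above it. The means were 25.4 ± 4.14, 19.2 ± 6.94 and 7.99 ± 1.52 FPKM (SD, n = 3), and the AngII+PGE1 mean was 31.5% of the saline mean and 41.7% of the AngII mean. The log2 differences were -1.56 from saline and -1.11 from AngII. AngII against saline was -0.44, and -0.14 without AngII library 3.

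Angptl4 was at 11.47, 9.24 and 10.88 FPKM with saline, at 4.48, 4.64 and 2.52 FPKM with AngII, and at 1.22, 2.46 and 2.8 FPKM with AngII+PGE1. Every AngII library was already below every saline library, and the AngII and AngII+PGE1 libraries overlapped, since AngII library 3 was below AngII+PGE1 library 3. The means were 10.5 ± 1.16, 3.88 ± 1.18 and 2.16 ± 0.832 FPKM (SD, n = 3), and the AngII+PGE1 mean was 20.5% of the saline mean and 55.7% of the AngII mean. The log2 difference of AngII+PGE1 from saline was -1.90, and AngII alone was at -1.27. The difference between AngII+PGE1 and AngII was -0.63, and -0.40 without AngII+PGE1 library 1.

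**Figure D1:**
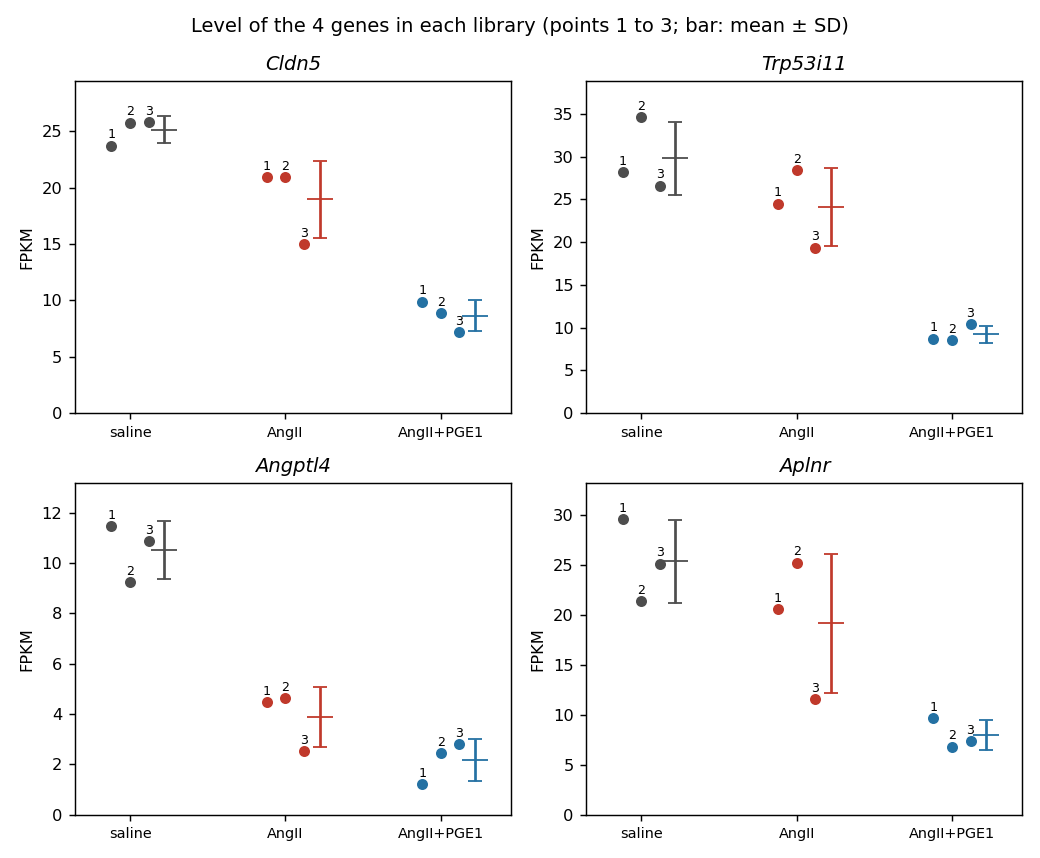
Level in FPKM (y axis, from 0) of Cldn5, Trp53i11, Angptl4 and Aplnr in saline, AngII and AngII+PGE1 hearts; numbered points are libraries 1 to 3 and bars are the mean ± SD. The AngII+PGE1 points lie below all others for 3 of the genes, while for Angptl4 the AngII points, from 2.52 to 4.64 FPKM, already lie below the saline points.

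Set side by side, the log2 difference of AngII from saline was 66.8% as large as that of AngII+PGE1 from saline for Angptl4, 27.6% for Cldn5, 18.9% for Trp53i11 and 28.2% for Aplnr. These shares use the same saline and AngII+PGE1 libraries and are not independent of each other. All 4 genes had non-overlapping, lower AngII+PGE1 than saline libraries, a pattern shown by 7.89% of tested genes. Against AngII, 3 of the 4 did so, beside 19.7% of tested genes. For AngII against saline, Cldn5 and Angptl4 were lower with no overlap, as were 15.8% of tested genes. Cldn5, Trp53i11 and Aplnr were below every library of both other groups, as were 2.14% of tested genes. These counts follow from how the genes were picked.

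Ordered by their log2 difference between AngII+PGE1 and saline from the lowest of the 11902 tested genes, Angptl4 had rank 4, Trp53i11 rank 8, Aplnr rank 9 and Cldn5 rank 11. Ordered by the difference between AngII+PGE1 and AngII, Trp53i11 had rank 177, Aplnr rank 328, Cldn5 rank 418 and Angptl4 rank 1605. The genes thus stood nearer the end of the list against saline than against AngII, but both contrasts were used to choose them. The ranks cannot be compared between the lists, since far more genes differed from AngII than from saline. An unadjusted p under 0.05 by limma was reached by 33.6% of tested genes against AngII and by 4.23% against saline. By level, Cldn5 exceeded 77.3% of tested genes with saline, 72.0% with AngII and 52.8% with AngII+PGE1. Trp53i11 exceeded 80.4%, 77.4% and 54.4%, and Aplnr 77.5%, 72.2% and 50.8%. Angptl4 was the weakest, above 56.5%, 28.2% and 18% of tested genes. Cldn5, Trp53i11 and Aplnr had neighbouring levels in each group, whose order did not separate beyond their spread except where Trp53i11 exceeded every Cldn5 value with saline.

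The authors' deposited table gives its own log2 ratios for these genes. For AngII+PGE1 over saline it lists -1.44 for Cldn5, -1.61 for Trp53i11, -2.16 for Angptl4 and -1.57 for Aplnr. For AngII over saline the authors' deposited table lists -0.45, -0.39, -1.49 and -0.47 in the same order. Its ratios of AngII over AngII+PGE1 are 1.0, 1.23, 0.67 and 1.11, and by these as well Angptl4 had the smallest step between AngII and AngII+PGE1 and the largest between saline and AngII.

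**Figure D2:**
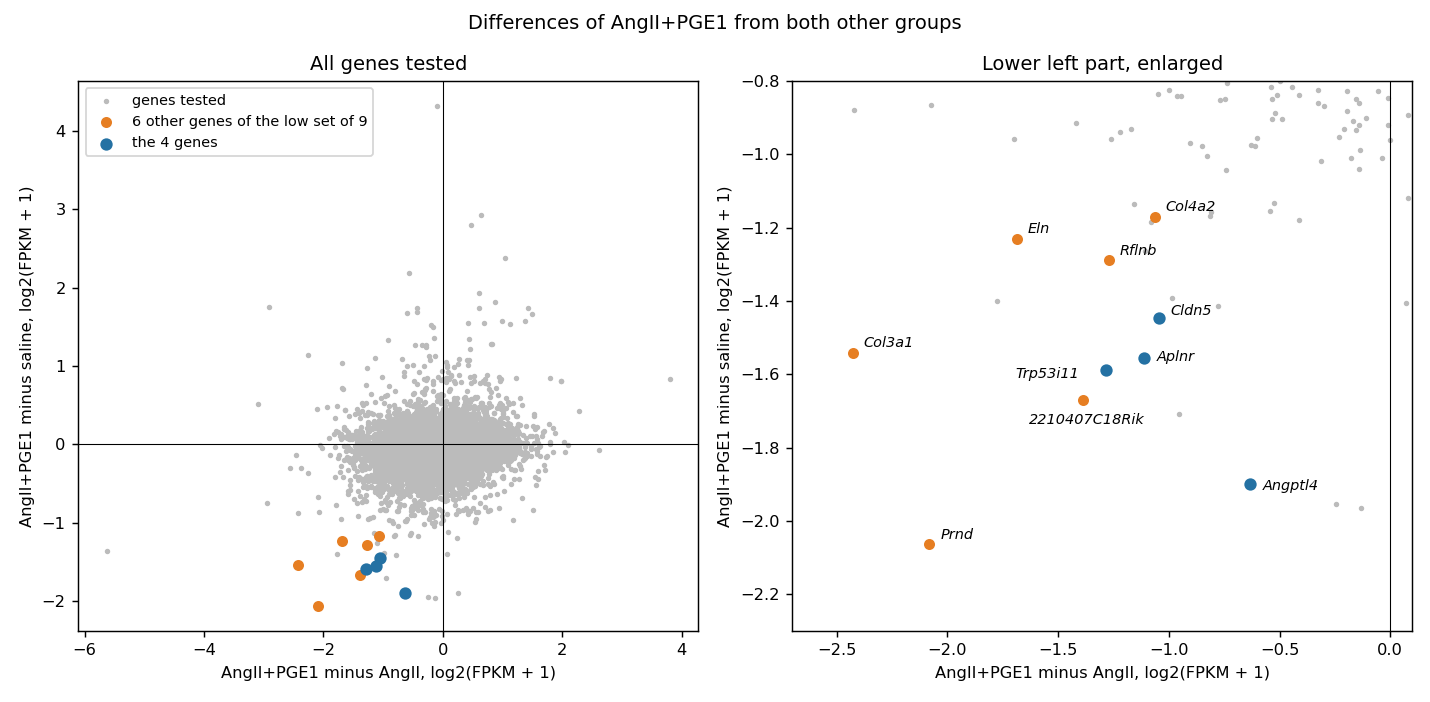
Difference of AngII+PGE1 from AngII (x axis) against its difference from saline (y axis), both on the log2(FPKM + 1) scale, for all 11902 tested genes (left) and enlarged for the lower left (right). Cldn5, Trp53i11 and Aplnr lie close together at -1.04 to -1.29 and -1.45 to -1.59, and Angptl4 lies apart at -0.63 and -1.90; both axes share the AngII+PGE1 libraries, so the cloud's shape is no result.

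The ratios between Cldn5, Trp53i11 and Aplnr were also followed from library to library. The ratio of Cldn5 to Aplnr ran from 0.801 to 1.21 with saline, from 0.83 to 1.29 with AngII and from 0.965 to 1.3 with AngII+PGE1. That of Cldn5 to Trp53i11 ran from 0.745 to 0.972, from 0.737 to 0.855 and from 0.69 to 1.13. That of Trp53i11 to Aplnr ran from 0.952 to 1.62, from 1.13 to 1.67 and from 0.898 to 1.4. Each of these ratios overlapped between all groups. The genes were chosen for the same group pattern, so alike ratios follow in part from the choice. Angptl4 differed in this: its ratio to Aplnr was 0.387 to 0.432 with saline and 0.184 to 0.217 with AngII, with no overlap, and 0.126 to 0.377 with AngII+PGE1. AngII library 3 was the lowest AngII library for all 4 genes. Averaged over the 4, it lay 1.01 below the saline mean on the log2 scale (-1.01), against -0.46 and -0.33 for AngII libraries 1 and 2 and -1.64, -1.64 and -1.59 for the AngII+PGE1 libraries. The saline and AngII+PGE1 libraries that stood apart on the principal component did not stand apart on this mean, at -0.03 and -1.64. The mean hid differences between genes. AngII+PGE1 library 1 ran from -2.37 to -1.26 over the 4 genes, against -1.74 to -1.4 in library 2 and -1.68 to -1.43 in library 3. Within its group it was lowest for Angptl4 and highest for Cldn5 and Aplnr.

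The profiles of the 4 genes were compared with every tested gene by the root mean square difference of centred log2 levels over the 9 libraries, where a smaller value means a more alike profile. Cldn5 was nearest to Trp53i11 (0.21) and Aplnr (0.22), followed by Bcl6b (0.27), which encodes a transcriptional repressor, Cryba4 (0.27), a lens crystallin gene, and Rflnb (0.28), which encodes the filamin-binding refilin B. Trp53i11 was nearest to Cldn5 (0.21), Rflnb (0.26), Aplnr (0.28), Vash1 (0.35), the gene of the angiogenesis inhibitor vasohibin 1, and Chst1 (0.37), a carbohydrate sulfotransferase gene. Aplnr was nearest to Cldn5 (0.22), Rflnb (0.23), Bcl6b (0.24), Vash1 (0.25) and 2210407C18Rik (0.26).

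The genes nearest to Angptl4 were Col5a3 (0.33), a fibrillar collagen chain gene, Pcdh12 (0.40), an endothelial protocadherin gene, Apln (0.40), the gene of the ligand of Aplnr, Tspan18 (0.42) and Rnf144a (0.44). The other members followed shortly after, Aplnr at rank 8 (0.46), Cldn5 at rank 10 (0.47) and Trp53i11 at rank 11 (0.47). In the reverse direction Angptl4 had rank 59 among the neighbours of Trp53i11, rank 82 for Aplnr and rank 207 for Cldn5. The mean profile of the 4 genes was nearest to Col5a3 (0.27), Vash1 (0.29), Bcl6b (0.29) and Rflnb (0.29), then to Creb3l1 (0.31), Cd93 (0.33), Pxdn (0.33) and Fscn1 (0.34), while the median over all tested genes was 0.72. Among the neighbours, Rflnb was at 27.32 to 32.51 FPKM with saline, 22.68 to 44.2 FPKM with AngII and 9.96 to 13.63 FPKM with AngII+PGE1. Bcl6b, at 5.79 to 8.57 FPKM with AngII+PGE1, overlapped AngII library 3 (7.05 FPKM) but no other AngII or saline library. These are descriptions over 9 libraries of 3 groups. Cldn5, Trp53i11 and Aplnr were chosen for a shared group pattern, so their nearness to each other follows in part from the choice.

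A cut at 1 on the log2 scale, chosen after the values were seen, gives a wider view. Below every library of both other groups and lower than each of their means by more than 1 were 9 genes, or 0.0756% of those tested. Cldn5, Trp53i11 and Aplnr were among them, with Prnd, 2210407C18Rik, Col3a1, Rflnb, Eln and Col4a2. Cldn5 was just inside this cut, at -1.04 from AngII, with Col4a2 at -1.06. Angptl4 was outside it at -0.63.

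The genes around the 4 were tested with limma across all tested genes, with Benjamini-Hochberg adjustment and a threshold of 0.05. AngII against saline gave 370 genes past the threshold (3.11%), 156 higher (1.31%) and 214 lower (1.8%). AngII+PGE1 against AngII gave 48 (0.403%), 24 higher and 24 lower (0.202% each). AngII+PGE1 against saline gave 2 (0.0168%), neither of them among the other genes listed below. At an unadjusted p under 0.05 the shares were 35.0%, 33.6% and 4.23%. The comparisons share libraries in pairs. Of the listed genes named below, none passed for AngII against saline without any one of saline libraries 1 or 3 or AngII libraries 2 or 3. None passed for AngII+PGE1 against AngII without any one of saline library 1, AngII library 2 or AngII+PGE1 libraries 2 or 3. Without both libraries that stood apart, 5768 genes (49.1%) passed for AngII against saline, 5279 (44.9%) for AngII+PGE1 against AngII and 19 (0.162%) for AngII+PGE1 against saline. Both libraries were picked from these same values for lying toward the AngII libraries. Leaving them out is therefore expected to widen the gap to AngII, and the higher counts are no independent result. Calls of the lists below are from the fit with all libraries unless stated.

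Among ligands and signalling partners of Aplnr, the ligand gene Apln was low in both AngII groups alike. Apln was at 9.85, 5.0 and 11.25 FPKM with saline, at 2.99, 3.88 and 0.89 FPKM with AngII and at 1.98, 2.51 and 3.09 FPKM with AngII+PGE1. The saline libraries lay above all others, and the AngII and AngII+PGE1 libraries overlapped. By limma the log2 difference of AngII from saline was -1.48 (SE 0.36, adjusted p = 0.0537), that of AngII+PGE1 from saline -1.41 (adjusted p = 0.89) and that between AngII+PGE1 and AngII 0.07 (adjusted p = 0.9), so none passed. Against AngII, the receptor gene Aplnr was at -1.11 and the ligand gene Apln at 0.07. Aplnr was chosen as low on this contrast and Apln was not, so this difference follows in part from the choice. The second ligand gene Apela was at most 0.16 FPKM and was not tested. Of the 11 tested genes of the apelin list other than Aplnr, none passed in any comparison. At an unadjusted p under 0.05 there were 4, 3 and 1 in AngII against saline, AngII+PGE1 against AngII and AngII+PGE1 against saline, the order kept for all lists below. Their median log2 differences were -0.25, 0.09 and -0.12, beside 0.00, -0.08 and -0.07 over all tested genes.

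Junction partners of Cldn5 gave 1 call over the 3 comparisons. Of 20 tested junction genes other than Cldn5, only Cgnl1, which encodes the junction protein paracingulin, fell with AngII (log2 difference -0.83, SE 0.15, limma adjusted p = 0.0403), and none passed in the other comparisons. At an unadjusted p under 0.05 there were 9, 7 and 3. All 20 had a negative difference between AngII+PGE1 and saline (median -0.30), and 19 of 20 did between AngII and saline (median -0.40), while 7 of 20 did between AngII+PGE1 and AngII (median 0.05). Cdh5, the gene of the adherens junction protein VE-cadherin, was at 96.01 to 107.27 FPKM with saline, 37.18 to 75.98 FPKM with AngII and 47.12 to 66.15 FPKM with AngII+PGE1. Its log2 differences were -0.77 (limma adjusted p = 0.0864), -0.05 (0.896) and -0.83 (1.0). Tjp1, the gene of the scaffold ZO-1, was at -0.62 (adjusted p = 0.069 by limma), 0.27 and -0.35. Ocln, the gene of occludin, was at 0.06 to 0.18 FPKM and was not tested.

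Transcription factors and pathways known to act on Cldn5 gave no call with all libraries in the fit. None of 14 tested genes of the claudin 5 regulator list passed in any comparison, with 5, 5 and 3 at an unadjusted p under 0.05 by limma and medians of 0.00, -0.37 and -0.22. Foxo1, a forkhead repressor of Cldn5, was at -0.15, -0.17 and -0.32. Sox18, an endothelial activator, was at 0.27, -0.34 and -0.07, and Erg, the ETS factor that maintains endothelial junctions, was at -0.06, -0.40 and -0.46. Sox17 was at 0.86 (limma adjusted p = 0.0886), -0.48 and 0.38. Without the libraries that stood apart, 5, 8 and 0 genes of this list passed, beside 49.1%, 44.9% and 0.162% of tested genes. The 8 were 2 higher and 6 lower with AngII+PGE1 than with AngII.

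The 25 tested endothelial identity genes other than Cldn5 and Aplnr show where the pair stood among genes of the same cells. None passed in any comparison, and 6, 4 and 4 had an unadjusted p under 0.05 by limma. In AngII+PGE1 against saline 21 of the 25 were negative, with a median of -0.33 and a lowest value of -0.87 for Kdr, the VEGF receptor gene, beside -1.45 for Cldn5 and -1.56 for Aplnr, which were chosen on this contrast, so that their place below the 25 follows from the choice. In AngII+PGE1 against AngII 18 were negative, with a median of -0.27 and a lowest value of -0.95 for Egfl7. None of the 25 had all AngII+PGE1 libraries below both other groups, while 2 of the 20 junction genes (Afdn and Magi1) and 1 of the 14 claudin 5 regulators (Foxo1) did, beside 2.14% of tested genes. Pecam1, the gene of the endothelial adhesion protein CD31, was at 79.81 to 97.34 FPKM with saline, 46.44 to 83.37 FPKM with AngII and 54.26 to 81.03 FPKM with AngII+PGE1. Its log2 differences were -0.44, 0.03 and -0.41, none past the threshold. Kdr was at -1.45 (limma adjusted p = 0.0513), 0.58 and -0.87. Without the libraries that stood apart, 8 identity genes passed for AngII against saline, 9 for AngII+PGE1 against AngII (2 higher and 7 lower) and 0 for AngII+PGE1 against saline. Over all tested genes the shares in that fit were 49.1%, 44.9% and 0.162%.

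**Figure D3:**
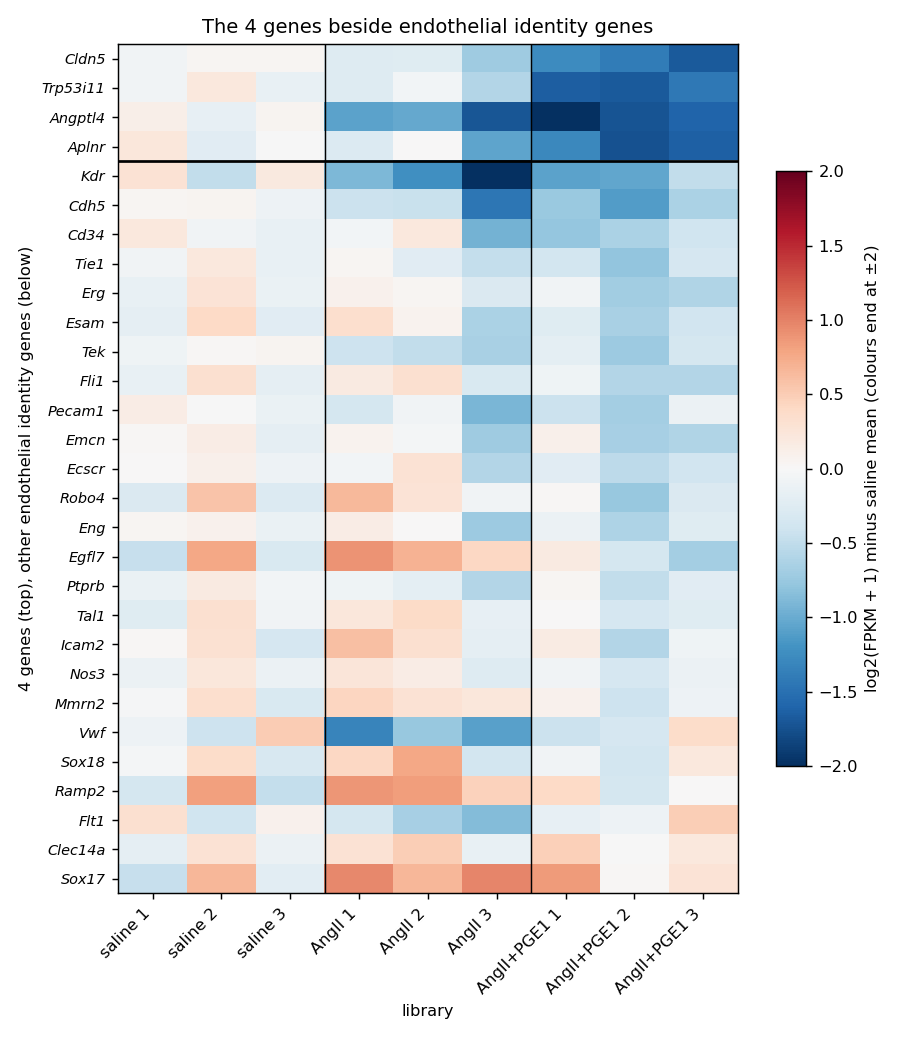
Difference of each library from the saline mean on the log2(FPKM + 1) scale (colour, ending at ±2) for the 4 genes, above the line, and for 25 other endothelial identity genes, below it, with libraries as columns. The 4 genes are dark blue in all AngII+PGE1 libraries, while the identity genes are mixed, with a median of -0.33 in AngII+PGE1 against saline; AngII library 3 is bluer than its group.

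The summed level of these 25 genes was 857 to 1150 FPKM with saline, 695 to 1100 FPKM with AngII and 622 to 851 FPKM with AngII+PGE1. It was thus lower with AngII+PGE1 than with saline without overlap, but the gap was narrow, at 851 against 857 FPKM. Summed fibroblast markers (979 to 1050 against 1090 to 1270 FPKM) and endocardial markers (45.4 to 48.8 against 55.1 to 59.8 FPKM) were also lower without overlap. The endothelial sum was lowest among AngII libraries in library 3, the library in which the 4 genes were also lowest. In bulk heart tissue, fewer endothelial cells and less RNA per cell cannot be told apart. Set against Pecam1 in the same library, Cldn5 was 28.8 ± 4.05% with saline, 29.3 ± 3.7% with AngII and 13.5 ± 4.07% with AngII+PGE1 (SD, n = 3). Trp53i11 was 34 ± 5.32%, 37.1 ± 4.0% and 14 ± 1.55% of Pecam1, and Aplnr was 28.8 ± 3.84%, 28.4 ± 2.95% and 12.2 ± 2.92%. For these 3 genes the ratio to Pecam1 overlapped between saline and AngII, and each AngII+PGE1 library was below every other library. Angptl4 was 12 ± 1.55%, 5.83 ± 0.587% and 3.29 ± 1.33% of Pecam1, a step down at each group. Its means were 10.3%, 6.27% and 3.82% of Cdh5, and 1.1%, 0.402% and 0.298% of the summed identity genes. Against the summed genes its AngII and AngII+PGE1 libraries overlapped, so that step depended on the reference. For the other 3 genes the comparison of AngII with saline depended on the reference. Set against Cdh5, the saline, AngII and AngII+PGE1 means were 24.5%, 31.9% and 15.3% for Cldn5, 28.9%, 40.6% and 16% for Trp53i11 and 24.7%, 30.6% and 13.9% for Aplnr, higher with AngII than with saline. Set against the summed identity genes they were 2.59%, 2.01% and 1.17% for Cldn5, 3.04%, 2.56% and 1.24% for Trp53i11 and 2.65%, 1.97% and 1.06% for Aplnr, lower with AngII than with saline. By every one of these references the AngII+PGE1 libraries of the 3 genes lay below all others. The 3 genes were chosen as low with AngII+PGE1 against both other groups, so this place follows largely from the choice. Whether the number of endothelial cells played a part was not tested.

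Endothelial subtypes and signalling gave few calls. Of 13 capillary and venous genes, Aqp1, a water channel gene, fell with AngII (log2 difference -1.52, limma adjusted p = 0.0332) and rose with AngII+PGE1 against AngII (1.41, adjusted p = 0.0435), and Cd36, the fatty acid transporter gene, fell with AngII. Of 12 arterial genes, Stmn2 rose with AngII (0.96, adjusted p = 0.0453 by limma). None of 22 genes of VEGF and Notch signalling passed, with 7, 5 and 5 at an unadjusted p under 0.05 and medians of -0.24, 0.08 and -0.33. No gene passed among 6 lymphatic genes (2, 1 and 0 at an unadjusted p under 0.05) or 7 endocardial genes (4, 2 and 0). In AngII+PGE1 against saline no gene of these subtype lists passed.

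For Trp53i11, neither Trp53 nor any listed p53 target passed the threshold with all libraries in the fit. Trp53 was at 16.96 to 23.26 FPKM with saline, 16.61 to 30.75 FPKM with AngII and 11.15 to 16.55 FPKM with AngII+PGE1, with log2 differences of 0.24, -0.78 (limma adjusted p = 0.0771) and -0.53. Of 24 tested genes of the p53 list other than Trp53i11, none passed, with 6, 9 and 1 at an unadjusted p under 0.05 and medians of 0.03, -0.01 and -0.16. Without the libraries that stood apart, 9 genes of the list passed for AngII against saline (3 higher and 6 lower), 10 for AngII+PGE1 against AngII (4 higher and 6 lower) and 0 for AngII+PGE1 against saline. In that fit 49.1%, 44.9% and 0.162% of all tested genes passed. Cdkn1a, the gene of the cell cycle inhibitor p21, was at -0.84, -0.01 and -0.85. Bax, which encodes a pro-apoptotic protein, averaged 26.5 FPKM with saline, 56.3 FPKM with AngII and 23.7 FPKM with both agents, a peak with AngII that Trp53i11 did not have.

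For Angptl4, the other genes of the lipase system gave few calls, and none in AngII+PGE1 against saline. Lpl, the gene of lipoprotein lipase, was at 0.78 (limma adjusted p = 0.161), -0.52 and 0.25, and Gpihbp1, which carries the enzyme to the capillary surface, was at -0.32, 0.08 and -0.24. Of 17 tested genes of this list other than Angptl4, Angptl7, of the same protein family, rose with AngII (log2 difference 1.46, SE 0.18, adjusted p = 0.0178) and fell with AngII+PGE1 against AngII (-1.39, SE 0.18, adjusted p = 0.031) by limma. Cd36 fell with AngII (-0.81, SE 0.14, limma adjusted p = 0.0392). None passed in AngII+PGE1 against saline, where 0 had an unadjusted p under 0.05 by limma. The list medians were -0.23, 0.06 and -0.14.

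PPAR targets gave the most calls of the lists. Of 26 tested targets other than Angptl4, 8 fell with AngII against saline, 0 rose and 18 did not pass, beside 1.8% of tested genes that fell. The median of the 26 was -0.61, and Angptl4 was at -1.27. They were Hadha and Acadm, enzymes of fatty acid oxidation (log2 differences -1.51 and -1.25), Acot1 (-1.97), Cd36 (-0.81), Mlycd (-0.88), Ucp3 (-1.25), Plin5 (-0.98) and Pdk4 (-2.14). Their limma adjusted p ran from 0.0332 for Hadha to 0.0453 for Pdk4. In AngII+PGE1 against AngII, Hadha (1.48, adjusted p = 0.0399) and Acadm (1.2, adjusted p = 0.0449) rose by limma. Of the 26 targets, 23 were positive there, and the median was 0.49. Angptl4 was at -0.63, with overlapping libraries, and it was chosen as low on this contrast, so its opposite sign follows from the choice. In AngII+PGE1 against saline none passed and 3 had an unadjusted p under 0.05 by limma, the median was -0.11, and the lowest value was -0.97 for Pdk4. Pdk4, which encodes a kinase that restrains glucose oxidation, reached 30.66, 78.01 and 115.11 FPKM with AngII+PGE1 and was at 26.89 to 29.86 FPKM with AngII. Without the libraries that stood apart, 16 targets were lower and 2 higher with AngII against saline, beside 24.9% and 24.2% of tested genes. In that fit 14 were higher and 1 lower with AngII+PGE1 against AngII, beside 18.1% and 26.8% of tested genes. Of the receptors, Ppara was at -0.51, 0.75 (limma adjusted p = 0.0705) and 0.24, Ppard at -0.27, 0.04 and -0.24, and Pparg at 0.02, -0.30 and -0.28, with none past the threshold.

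**Figure D4:**
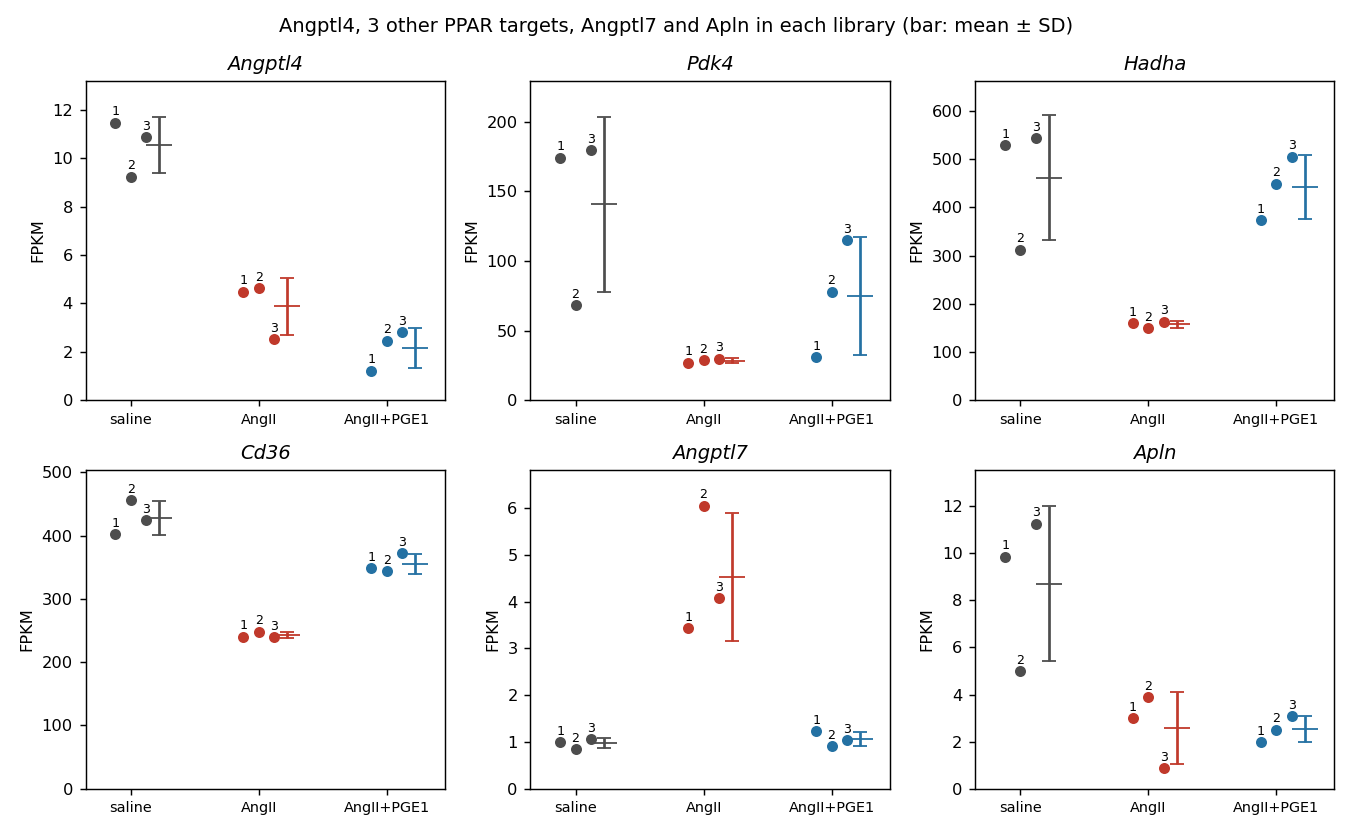
Level in FPKM (y axis, from 0) of Angptl4, the PPAR targets Pdk4, Hadha and Cd36, the related gene Angptl7, and Apln in each library; numbered points are libraries 1 to 3 and bars are the mean ± SD. Hadha and Cd36 lie higher with AngII+PGE1 than with AngII in every library. Angptl4, which was chosen as low with AngII+PGE1, does not, and its points in these groups overlap. Apln is at about the same level in both AngII groups, with means of 2.59 and 2.53 FPKM.

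Angptl4 is also induced by hypoxia and by glucocorticoids. Of 20 tested hypoxia targets other than Angptl4, none passed, with 7, 8 and 2 at an unadjusted p under 0.05 by limma and medians of -0.17, 0.03 and -0.10. Of 20 glucocorticoid targets other than Angptl4, Zbtb16 rose with AngII (0.99, adjusted p = 0.0392), and Dusp1 (-1.44, adjusted p = 0.0421) and Errfi1 (-1.32, adjusted p = 0.0496) fell by limma. None passed in the other comparisons, where 8 and 5 had an unadjusted p under 0.05, and the medians were -0.07, 0.21 and 0.05.

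Markers of other cell types were followed beside these values. Summed cardiomyocyte markers were at 80400 to 110000 FPKM with saline, 78900 to 108000 FPKM with AngII and 87800 to 102000 FPKM with AngII+PGE1, in overlapping ranges. Fibroblast markers summed to 1090 to 1270, 952 to 2540 and 979 to 1050 FPKM, smooth muscle and pericyte markers to 1460 to 1800, 2180 to 5000 and 1670 to 2450 FPKM, and macrophage markers to 369 to 572, 442 to 653 and 347 to 520 FPKM. Of 14 cardiomyocyte genes Atp2a2 fell with AngII (-2.04, limma adjusted p = 0.0453). Of 12 fibroblast genes Postn rose (3.61, adjusted p = 0.0453) and Gsn fell (-1.23, adjusted p = 0.0332) with AngII, and Gsn rose with AngII+PGE1 against AngII (1.18, adjusted p = 0.0427) by limma. Of 12 smooth muscle and pericyte genes Cnn1 rose (1.85, adjusted p = 0.0375) and Abcc9 fell (-1.25, adjusted p = 0.0403) with AngII by limma. No gene of the 13 macrophage, 5 red cell, 1 adipocyte and 5 mesothelium genes tested passed in any comparison, with 5, 4 and 1 macrophage genes and 0 of the other 3 lists at an unadjusted p under 0.05 by limma. Red cell markers varied most, from 141 to 9750 FPKM within the AngII+PGE1 group, whose library 2 was highest. None of the marker lists had a gene listed at 0 in all libraries. In AngII+PGE1 against saline no gene of any of these lists passed, and the part of cell composition in the levels of the 4 genes was not tested.

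Leaving out saline library 2 and AngII+PGE1 library 1 together kept the direction of all differences of the 4 genes. The log2 differences from saline with AngII+PGE1 were then -1.52 for Cldn5, -1.45 for Trp53i11, -1.75 for Angptl4 and -1.80 for Aplnr. Against AngII they were -1.14, -1.25, -0.40 and -1.25 in the same order.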

How the data were processed

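Poly(A)-selected heart RNA was sequenced as single-end reads of 50 bases on a BGISEQ-500, per the labels. HISAT2 2.0.4, Bowtie2 2.2.5, RSEM 1.2.12 and build mm9 are named in the submitters' processing notes, with no role given. The deposited table holds a normalized level per gene and library, read here as FPKM from its values, since the sources used here do not name the unit. The authors' deposited log2 ratios were copied, not recomputed. Depth is unknown, so no count test was run. Columns were matched to groups by name, but the saline and AngII+PGE1 column numbers are not the set in the labels, so libraries are numbered 1 to 3 in column order. Symbols stored as dates were restored for 11 genes.

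Genes with at least 1 FPKM in at least 3 libraries were tested with limma 3.58.1 (R 4.3.3, trend) on log2(FPKM + 1), with all 9 libraries in 1 fit, 6 residual degrees of freedom and Benjamini-Hochberg adjustment over the 11902 tested genes. The script was tested on simulated data. Named genes were the 4 members, a list of partners whatever their values (1 of them is not reported here), up to 4 genes of smallest p past the threshold per list and comparison, 5 nearest genes per member and 8 nearest to their mean. PPAR targets past that limit, the gene with the lowest value of a list, Bax, Afdn, Magi1 and the set of 9 were named after their values were seen. The members and the 21 gene lists were chosen with earlier results of these data known. Promoter letters are from RefSeq, matched by symbol for 2 of the 4 genes. Alternatives were other scalings, filters and pseudocounts, fits of 2 groups, robust variance and leaving out libraries.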

Additional observations from a re-analysis of the deposited data

How the results depend on the processing

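The 4 genes kept the sign of all 12 log2 differences under every alternative run, and 2 values moved by more than the spread between libraries: Angptl4 in AngII+PGE1 against saline was -2.31 with a pseudocount of 0.1, and Aplnr was -1.80 there without saline library 2 and AngII+PGE1 library 1. Counts of genes past the threshold moved far more. For AngII against saline (370) they were 88 without a filter, 593 after quantile normalization, 5768 without the libraries that stood apart, and 0 to 4512 when single libraries were left out. For AngII+PGE1 against AngII (48) they were 245 after median-ratio scaling, 6 without a filter, 772 with those groups alone, 5279 without the libraries that stood apart, and 0 to 3193 without single libraries. For AngII+PGE1 against saline (2) they were 0 without a filter, 1 with those groups alone, 19 without the libraries that stood apart, and 0 to 23 without single libraries. The cause was not tested. The libraries that stood apart were picked for lying toward the AngII libraries, so more calls against AngII without them follow in part from that choice.

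Over all listed genes together, the 20 calls for AngII against saline were 11 without a filter, 33 after quantile normalization, 117 without the libraries that stood apart and 0 to 100 without single libraries. The 5 calls for AngII+PGE1 against AngII, 4 higher and 1 lower, were 11 after median-ratio scaling (7 higher, 4 lower), 0 without a filter, 23 with those groups alone, 2 after quantile normalization (1 higher, 1 lower), 97 without the libraries that stood apart and 0 to 53 without single libraries. The 0 calls for AngII+PGE1 against saline became 1 without the libraries that stood apart and were 0 to 1 without single libraries. Where a single list had at least 1 call in a comparison, 82 of 221 recomputed counts stayed within 1.5 times. No paired analysis was possible because the column numbers of the saline and AngII+PGE1 groups are not the set that their labels carry, so no column could be tied to a labelled replicate.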

Other observations

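Besides Cldn5, Trp53i11 and Aplnr, the set of 9 genes that were below all libraries of both other groups and lower by more than 1 on the log2(FPKM + 1) scale held 3 matrix genes. Col3a1, a fibrillar collagen gene, was at 43.74 to 93.95 FPKM with saline, 55.37 to 352.42 FPKM with AngII and 14.86 to 28.22 FPKM with AngII+PGE1. Eln, the gene of elastin, was at 22.16 to 42.57, 28.21 to 90.85 and 9.28 to 18.93 FPKM, and Col4a2, a basement membrane collagen gene, at 81.44 to 116.34, 68.58 to 147.42 and 28.58 to 59.45 FPKM. In all 3, AngII library 2 was the highest of the 9 libraries, as it was for Rflnb (44.2 FPKM) and Prnd (15.7 FPKM). This was not so for Cldn5, Trp53i11, Aplnr and 2210407C18Rik. Prnd, the gene of the prion-related protein doppel, was at 6.46 to 7.48 FPKM with saline, 1.78 to 15.7 FPKM with AngII and 0.67 to 1.17 FPKM with AngII+PGE1. Its AngII library 3 was at 1.78 FPKM, near the AngII+PGE1 level, as that library was for Aplnr. The set was chosen on these values, so no test is given.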
